A study of Mus musculus with 8 samples.

Results

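Lipoprotein and endocytic receptors were examined in liver RNA of *Apoe*-/- mice treated with isoginkgetin (ISOGK). The genes were chosen by symbol and comprised *Lrp1*, *Lrp2*, *Vldlr*, *Scarb1*, *Sort1*, *Sorl1*, *Lsr*, *Cubn* and *Lrpap1*, which are 9 of 16540 genes in the count table. Of these, 8 passed the filter on low counts that left 12307 genes for testing, and *Cubn* did not. RNA sequencing was performed on 4 vehicle-treated and 4 ISOGK-treated male mice, with 1 library per mouse. All mice carried the *Apoe* knockout and were fed a Western diet, a high cholesterol diet that began 7 weeks before treatment. The ISOGK group received 20 mg/kg per day by intraperitoneal injection for 8 weeks, and the vehicle group received the solvent, named DMSO in the table. The age of the mice was not given in the sources used here. Both groups are thus labelled as lacking apolipoprotein E, a ligand of some of these receptors, although 3252 to 6489 counts per library were assigned to *Apoe*.

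Receptors of this kind bind lipoproteins or other cargo at the cell surface and carry it into endosomes. Members of the LDL receptor family (*Lrp1*, *Lrp2*, *Vldlr*) recognise apolipoprotein E and many further ligands, and the chaperone encoded by *Lrpap1* keeps them from binding ligands too early in the secretory pathway. SR-BI, encoded by *Scarb1*, instead takes cholesteryl ester from HDL without internalising the whole particle. In the liver, LRP1 clears remnant particles from blood, the lipolysis-stimulated lipoprotein receptor (*Lsr*) takes part in clearance of triglyceride-rich lipoproteins, and sortilin (*Sort1*) and its relative SORLA (*Sorl1*) sort proteins between the Golgi and endosomes. Megalin (*Lrp2*) and cubilin (*Cubn*) are best known as partners in the kidney proximal tubule, where they take up filtered proteins.

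The 8 libraries held between 17457106 and 24461854 counts. Levels are given as CPM, that is counts scaled by library size and TMM factors, and log2FC is the log2 fold change of ISOGK over vehicle. The 10 hepatocyte markers examined, *Alb* among them, had at least 4239 counts in every library. Skeletal muscle markers stood out in vehicle-treated mouse 4, with 27 to 451 counts for each of 10 genes against 0 to 9 in the other libraries, and values without this mouse are given with the counts of calls. In the test across all genes (edgeR's quasi-likelihood test with Benjamini-Hochberg adjustment), 7.55% of the tested genes had an adjusted p under 0.05, with 4.11% higher and 3.44% lower in the ISOGK group. With an absolute log2FC over 1 added, the share was 1.63%.

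The sequences just before the start sites of *Lrp2* and *Lsr* are shown because these receptor genes rose and fell, respectively, and were listed in the RefSeq promoter table (GRCm38), which held 7 of the 9 genes. *Sort1* and *Scarb1* are named only. Each is written 5′ to 3′ along the minus strand, on which the gene lies, ends at or within a few bases of the gene's start, and has matches to the searched motifs in capitals. *Lrp2* is from chr2:69586066-69586279 and *Lsr* from chr7:30973470-30973719.
Lrp2: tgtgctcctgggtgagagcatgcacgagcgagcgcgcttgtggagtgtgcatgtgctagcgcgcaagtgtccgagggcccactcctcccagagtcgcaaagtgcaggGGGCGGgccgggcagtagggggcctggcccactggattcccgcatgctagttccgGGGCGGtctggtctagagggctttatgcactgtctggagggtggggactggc
Lsr: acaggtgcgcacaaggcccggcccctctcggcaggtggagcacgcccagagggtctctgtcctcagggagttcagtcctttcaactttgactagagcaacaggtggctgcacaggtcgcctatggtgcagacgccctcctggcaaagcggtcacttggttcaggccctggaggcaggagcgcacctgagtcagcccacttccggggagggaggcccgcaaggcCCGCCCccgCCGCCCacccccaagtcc

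Both strands were searched for 6 motifs. They were the GC box with the letters GGGCGG, the TATA box with TATAAA, the CCAAT box, the E-box with CACGTG, the nuclear receptor motif with AGGTCA and a sterol regulatory element with TCACNCCAC. The GC box was the only one with a match in either window. It occurred 2 times in the *Lrp2* window of 214 bases, on the written strand, and 2 times in the *Lsr* window of 250 bases, where it was read on the opposite strand as CCGCCC. Among 32851 RefSeq promoter windows, 27.6% of those cut to 214 bases and 32.7% of those of 250 bases held a GC box. The TCACNCCAC motif was present in 0.883% and 1.05% of windows of these lengths.

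The receptors differed widely in level. Divided by the length of their exons, *Lsr* and *Lrp1* were the most abundant in vehicle-treated mice, with 64.3 ± 3.2 and 49.0 ± 2.2 CPM per kb of exon (SD, n = 4). *Scarb1* followed with 23.2 ± 1.62 CPM per kb, and *Lrpap1* had 8.75 ± 0.384 CPM per kb. *Sort1* had 1.49 ± 0.307 CPM per kb, *Sorl1* 0.656 ± 0.158 and *Vldlr* 0.449 ± 0.0342. *Lrp2* was far below these with 0.0140 ± 0.0068 CPM per kb, and *Cubn* was at 0 in all vehicle-treated mice. In the vehicle group only *Sorl1* and *Vldlr* had ranges that overlapped among neighbours in this order. The order was the same in the ISOGK group, in which *Lsr* (45.1 ± 5.65 CPM per kb) and *Lrp1* (43.0 ± 3.28 CPM per kb) overlapped. Exons of all annotated isoforms were counted in these lengths, so a gene with unused exons has a level per kb that is too low.

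**Figure D1:**
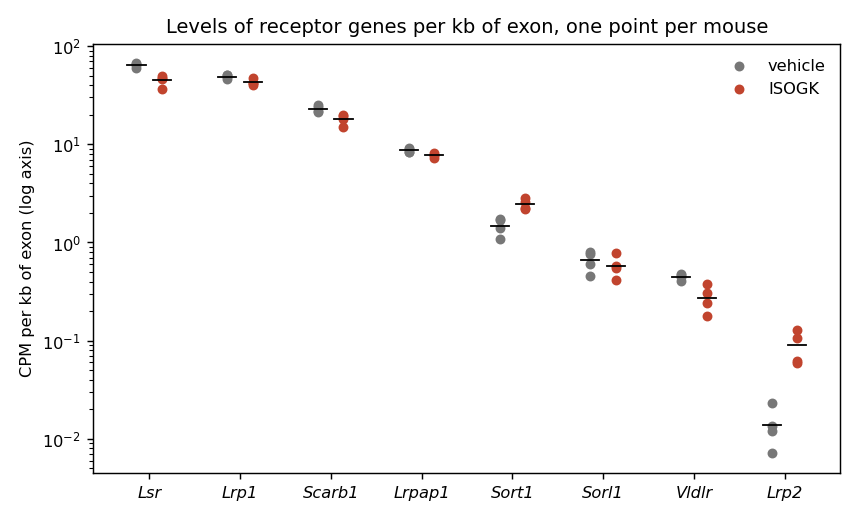
The plot shows the level of 8 receptor genes in CPM per kb of exon on a log axis, with a point for each mouse (grey, vehicle; red, ISOGK) and a black line at the mean of 4 mice. *Lsr* and *Lrp1* lie at the top and *Lrp2* lies lowest in both groups; *Cubn* is left out because it was at 0 in all vehicle-treated mice.

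*Lrp1* made up 66.1% to 69.9% of the summed CPM of the 9 genes with vehicle and 69.0% to 73.2% with ISOGK. *Scarb1* held 14.3% to 17.3% and 12.2% to 15.9% of this sum. For *Lsr* this share was 10.5% to 11.7% with vehicle and 6.95% to 10.4% with ISOGK. These shares are not corrected for exon length, which is 17717 bp for *Lrp1* and 2172 bp for *Lsr*. The sum itself ran from 1234 to 1308 CPM with vehicle and from 1031 to 1155 CPM with ISOGK. In these whole-liver samples, fewer cells of a type and less RNA per cell cannot be told apart.

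Of the 8 tested receptor genes, 3 changed with ISOGK at an adjusted p under 0.05, against 7.55% of all tested genes. *Lrp2* and *Sort1* rose and *Lsr* fell, and *Lrp2* alone also had an absolute log2FC over 1. *Lrp2* was among the 8 tested genes only through its counts in the ISOGK group. The counts of genes that include it are thus not independent of its rise. Over all tested genes, 4.11% rose, 3.44% fell and 1.63% also had an absolute log2FC over 1. The other 5 did not pass, and all of these had a log2FC below 0. The groups did not overlap for 6 of the 8 genes, with *Lrp2* and *Sort1* higher and *Vldlr*, *Scarb1*, *Lsr* and *Lrpap1* lower in all ISOGK-treated mice; such a separation was seen in 15.3% of all tested genes, 7.91% with all ISOGK-treated mice higher and 7.35% with all lower. The median log2FC was -0.19 over the 8 genes and 0.0018 over all tested genes. Without vehicle-treated mouse 4 the same number of receptor genes, 3, was called, while 1 was called without vehicle-treated mouse 2. With DESeq2's Wald test 5 were called, *Vldlr* and *Scarb1* in addition, and with library size alone as the scaling 6 were called.

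**Figure D2:**
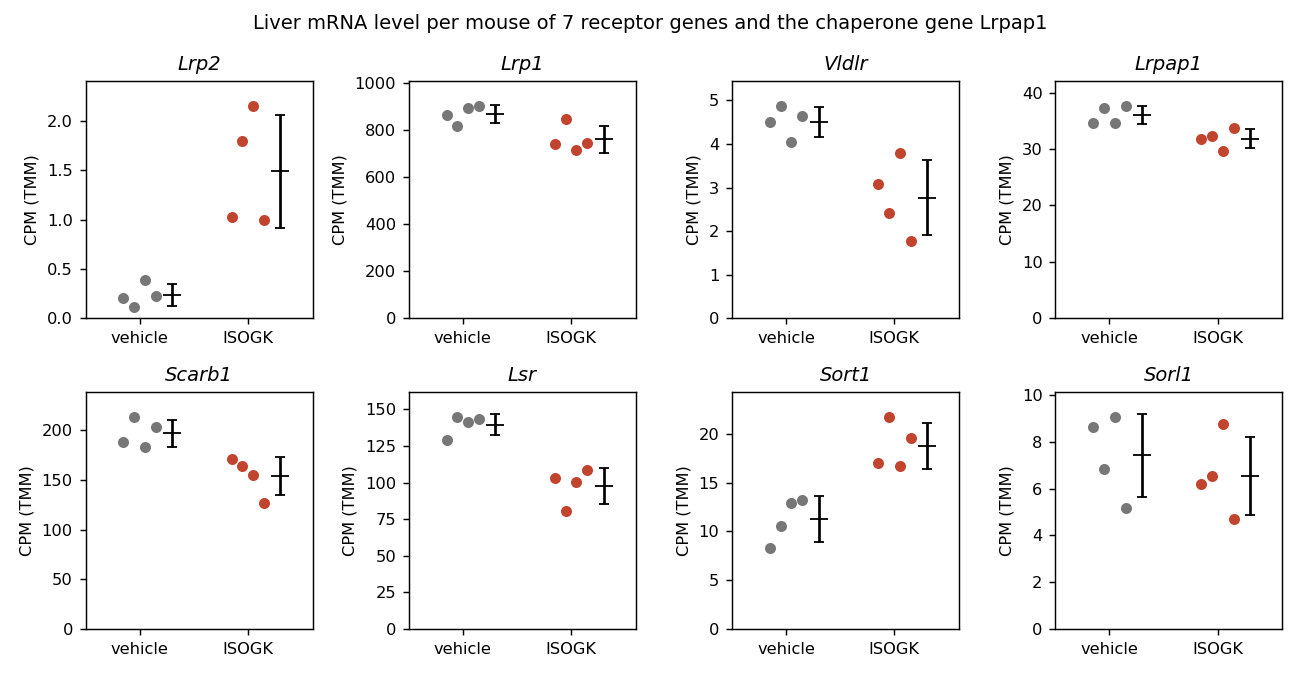
CPM scaled with TMM factors on the vertical axis, with a point for each vehicle-treated (grey) and ISOGK-treated (red) mouse and a bar for mean ± SD of 4 mice. All ISOGK-treated mice lie above the vehicle group for *Lrp2* and *Sort1* and below it for *Vldlr*, *Lrpap1*, *Scarb1* and *Lsr*, while the groups overlap for *Lrp1* and *Sorl1*.

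Among the LDL receptor family genes, *Lrp2* lies on chromosome 2 of GRCm38 from 69424340 to 69586065, on the minus strand. Its counts were 4, 3, 10 and 5 in vehicle-treated mice 1 to 4 and 21, 34, 38 and 19 in ISOGK-treated mice 1 to 4. Every ISOGK-treated mouse lay above every vehicle-treated mouse, and mice 2 and 3 were the highest in the ISOGK group. The summed counts were 22 (95% exact Poisson interval 13.8 to 33.3) and 112 (92.2 to 135), intervals that cover counting error only. On the CPM scale *Lrp2* rose from 0.233 ± 0.114 to 1.49 ± 0.572 (SD, n = 4), a log2FC of 2.63 (standard error 0.42, edgeR adjusted p = 0.00389) or 6.19-fold. This call held in all 14 alternatives, with log2FCs from 2.40 to 3.02. *Lrp2* passed the filter on low counts only through its counts in the ISOGK group. Its place among the tested genes was thus not independent of its rise. With no filter beyond 1 count, the edgeR adjusted p was 0.00216. At its highest, *Lrp2* still had 2.15 CPM, against 715 CPM for the lowest value of its relative *Lrp1*.

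*Cubn*, the partner of megalin, had 0 counts in each vehicle-treated mouse and 1, 1, 0 and 0 counts in ISOGK-treated mice 1 to 4. These values lie below the limit of 3 counts per library that a count of 0 allows, which is 0.117 to 0.169 CPM, so no fold change is given. *Amn*, which encodes the membrane anchor of cubilin, had 0.053 and 0.050 CPM in the vehicle and ISOGK group. Of 12 kidney tubule markers, 4 could be examined and had at most 3 counts in any library, and the other 8 were not analysed here.

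Bile duct markers, which could come from another cell type than the hepatocyte, are given beside this result. The summed level of 8 such markers was 46.3, 48.4, 45.0 and 55.5 CPM in vehicle-treated mice 1 to 4 and 60.0, 91.5, 69.9 and 47.6 CPM in ISOGK-treated mice 1 to 4. The ranges overlapped, since ISOGK-treated mouse 4 lay within the vehicle range. The largest part of this sum was *Spp1*, with 19.89 to 27.85 CPM per vehicle-treated mouse and 20.48 to 54.96 CPM per ISOGK-treated mouse. The sum thus follows *Spp1* more than the other markers. Of 7 tested markers, 6 had a log2FC above 0 and *Sox9*, a transcription factor of duct cells, passed the test (log2FC 0.51, edgeR adjusted p = 0.0494). *Pkhd1* went the other way, with a log2FC of -0.37 (edgeR adjusted p = 0.293). *Krt19*, a keratin of duct cells, had 13, 26, 30 and 26 counts with vehicle and 44, 78, 61 and 18 with ISOGK (log2FC 1.39, edgeR adjusted p = 0.055). None of the 8 markers was at 0 throughout, and *Cftr* had at most 4 counts per library. The part of duct cells in the *Lrp2* result was not tested.

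*Lrp1*, the large remnant receptor of hepatocytes, lies on chromosome 10 from 127538161 to 127621148. It had 863, 816, 895 and 901 CPM in vehicle-treated mice 1 to 4 and 739, 846, 715 and 745 CPM in ISOGK-treated mice 1 to 4. ISOGK-treated mouse 2 lay within the vehicle range and the other 3 lay below it. The log2FC was -0.19 (95% confidence interval -0.39 to 0.01, edgeR adjusted p = 0.237), and *Lrp1* passed in none of the 14 alternatives.

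*Vldlr*, which encodes the VLDL receptor and is known mainly from muscle, heart and adipose tissue, lies on chromosome 19 from 27216484 to 27254231. Its level was 4.51, 4.86, 4.05 and 4.64 CPM in vehicle-treated mice 1 to 4 and 3.09, 2.43, 3.79 and 1.78 CPM in ISOGK-treated mice 1 to 4. All ISOGK-treated mice lay below the vehicle group, and ISOGK-treated mouse 4 was the lowest. The log2FC was -0.71 (95% confidence interval -1.17 to -0.24), which did not pass after adjustment over all genes (edgeR adjusted p = 0.068). DESeq2's Wald test gave an adjusted p of 0.0287. The edgeR adjusted p was 0.0252 without ISOGK-treated mouse 3 and 0.0497 with library size alone. In the other 11 of 14 alternatives *Vldlr* did not pass, with an edgeR adjusted p of up to 0.169. Vehicle-treated mouse 4, in which muscle markers were found, had 4.64 CPM of *Vldlr*, within the range of the other vehicle-treated mice. Of 8 adipocyte markers, 4 could be examined, and their summed level was 669 to 1069 CPM with vehicle and 101.5 to 243 CPM with ISOGK, without overlap. This sum was carried by *Car3*, which is also abundant in liver and fell (log2FC -2.65, edgeR adjusted p = 0.00381). *Fabp4* had a log2FC of -0.15 (edgeR adjusted p = 0.788), and *Cfd* and *Cidea* had at most 13 and 4 counts per library and were not tested. The part of adipocytes in the values of *Vldlr* was not tested.

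*Lrpap1*, the gene of the receptor-associated chaperone, lies on chromosome 5 from 35091501 to 35105766. It had 34.7, 37.2, 34.6 and 37.5 CPM with vehicle and 31.7, 32.4, 29.6 and 33.8 CPM with ISOGK. The groups did not overlap, although the gap was small, and the log2FC of -0.18 (95% confidence interval -0.36 to 0.01) did not pass the test (edgeR adjusted p = 0.223). *Lrpap1* also did not pass in 13 of the 14 alternatives. With library size alone the log2FC was -0.31 and the edgeR adjusted p 0.0415. That scaling moved the median log2FC of all genes to -0.13.

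*Scarb1* lies on chromosome 5 from 125277087 to 125341094. It had 188, 213, 183 and 203 CPM in vehicle-treated mice 1 to 4 and 171, 164, 155 and 127 CPM in ISOGK-treated mice 1 to 4. Each ISOGK-treated mouse was below each vehicle-treated mouse. The log2FC was -0.35 (standard error 0.11, 95% confidence interval -0.59 to -0.12) and missed the threshold (edgeR adjusted p = 0.0699). DESeq2's Wald test gave an adjusted p of 0.0279 and edgeR with library size alone 0.0363. In the other 12 of 14 alternatives *Scarb1* did not pass, with an edgeR adjusted p of up to 0.188. *Pdzk1*, which encodes the scaffold that holds SR-BI at the hepatocyte surface, had 50.1 and 47.0 CPM and a log2FC of -0.09 (edgeR adjusted p = 0.622).

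*Lsr* lies on chromosome 7 from 30957770 to 30973464, and its upstream sequence is the second of those shown above. Vehicle-treated mice 1 to 4 had 129, 145, 141 and 143 CPM and ISOGK-treated mice 1 to 4 had 103, 80.3, 100.1 and 109 CPM. No ISOGK-treated mouse reached the lowest vehicle-treated mouse, and ISOGK-treated mouse 2 was the lowest. *Lsr* fell from 139.6 ± 6.92 to 98.0 ± 12.3 CPM (SD, n = 4), a log2FC of -0.51 (standard error 0.10, 95% confidence interval -0.74 to -0.28, edgeR adjusted p = 0.0128). Its adjusted p was 0.0503 without vehicle-treated mouse 2 and under the threshold in the other 13 alternatives.

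Of the sorting receptors, *Sort1* lies on chromosome 3 from 108284082 to 108361511. It had 8.28, 10.6, 13.0 and 13.3 CPM in vehicle-treated mice 1 to 4 and 17.1, 21.7, 16.7 and 19.6 CPM in ISOGK-treated mice 1 to 4. All ISOGK-treated mice lay above the vehicle group, in which mouse 1 was the lowest. *Sort1* rose from 11.3 ± 2.33 to 18.8 ± 2.36 CPM (SD, n = 4), a log2FC of 0.73 (standard error 0.15, 95% confidence interval 0.40 to 1.07, edgeR adjusted p = 0.0154). The adjusted p was 0.0608 without vehicle-treated mouse 2 and 0.0511 without ISOGK-treated mouse 2, and the call held in the other 12 alternatives.

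*Sorl1* lies on chromosome 9 from 41964720 to 42124297. It had 8.63, 6.84, 9.07 and 5.18 CPM with vehicle and 6.23, 6.54, 8.76 and 4.71 CPM with ISOGK. The ranges were nearly the same, and mouse 4 was the lowest of its group in both. The log2FC was -0.18 with a 95% confidence interval from -0.64 to 0.28 (edgeR adjusted p = 0.65), an interval that reaches the size of the decrease of *Lsr*. Of the other VPS10 sorting receptors, *Sorcs2* had 0.127 CPM with vehicle and 0.322 CPM with ISOGK and was too low to test.

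**Figure D3:**
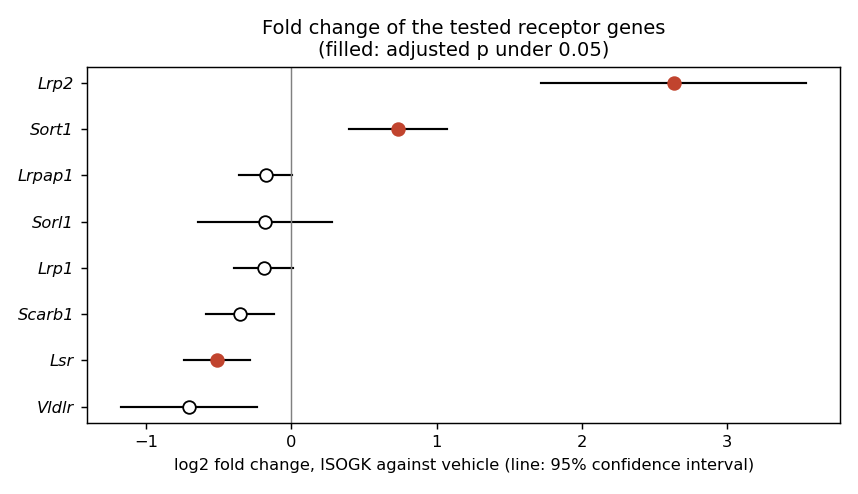
Log2 fold change of the 8 tested genes, ISOGK against vehicle, on the horizontal axis, with points for the edgeR estimate and lines for the 95% confidence interval. Filled points mark *Lrp2*, *Sort1* and *Lsr*, which had an adjusted p under 0.05; intervals of *Vldlr* and *Scarb1* lie below 0 although their adjusted p-values of 0.068 and 0.0699 missed the threshold.

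The nearest tested gene on each side of the 3 that changed was examined in the same fit, and untested genes between them were not examined. The nearest tested genes to *Lrp2* are *Dhrs9*, a retinol dehydrogenase gene 19807 bp away, and *Bbs5*, a gene of the cilium 61106 bp away. They had log2FCs of 0.17 and -0.09 (edgeR adjusted p = 0.673 and 0.873). The neighbours of *Lsr* are *Usf2*, which encodes a transcription factor and lies 967 bp away, and *Fam187b* at 326 bp, with log2FCs of -0.18 and 0.05 (edgeR adjusted p = 0.374 and 0.915). *Sort1* has *Psma5*, a proteasome subunit gene on the same strand, 4108 bp before it. *Psma5* rose from 35.3 ± 1.8 to 58.8 ± 10.4 CPM (SD, n = 4), a log2FC of 0.74 (edgeR adjusted p = 0.00485). On the other side the nearest tested gene was *Sars*, a seryl-tRNA synthetase gene 63354 bp away, with a log2FC of 0.03 (edgeR adjusted p = 0.9).

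Other genes of the receptor pathways were taken from lists written with earlier results of these data known, and are described by counts. Beside these counts, 4.11% of all tested genes rose and 3.44% fell. Of 14 LDL receptor family genes, 12 were tested, 2 rose and 0 fell, with *Lrp2* tested only through its counts in the ISOGK group. Besides *Lrp2* this was *Lrp5*, a co-receptor of Wnt signalling, with 91.8, 82.5, 75.8 and 93.6 CPM in vehicle-treated mice 1 to 4 and 96.2, 143, 125 and 110.5 CPM in ISOGK-treated mice 1 to 4. The groups did not overlap, but ISOGK-treated mouse 1 lay close to the vehicle range. The log2FC of *Lrp5* was 0.47 (standard error 0.12, edgeR adjusted p = 0.0434), and the call was lost in 10 of 14 alternatives, among them library size alone (adjusted p = 0.123).

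Of 15 tested scavenger receptors, 2 fell and 0 rose, with a median log2FC of -0.24. These were *Cd68*, from 50.6 ± 4.78 to 34.0 ± 4.23 CPM (log2FC -0.57, edgeR adjusted p = 0.009), and *Msr1*, from 12.6 ± 0.52 to 8.62 ± 1.59 CPM (-0.55, edgeR adjusted p = 0.0322). Both are genes of macrophages, and the call for *Msr1* was lost in 6 of 14 alternatives. The summed level of 10 macrophage markers, *Cd68* included, was 1309 to 1712 CPM with vehicle and 1087 to 1373 CPM with ISOGK. These ranges overlapped, and the largest part of the sum was *Cd5l*, with 628.6 CPM with vehicle and 479.5 CPM with ISOGK. Of the 10 markers, 8 had a log2FC below 0 and 2 above 0, and only *Cd68* passed the test. The part of macrophages in the decrease of *Cd68* and *Msr1* was not tested. *Cd36*, the fatty acid translocase gene, had a log2FC of -0.24 (edgeR adjusted p = 0.207).

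Among 17 other endocytic receptors, 2 fell and 0 rose. *Tfrc*, the transferrin receptor gene, fell from 18.2 ± 5.49 to 10.3 ± 1.64 CPM (log2FC -0.81, edgeR adjusted p = 0.0335), with 1 pair of overlapping values, 12.6 CPM in vehicle-treated mouse 3 and 12.7 CPM in ISOGK-treated mouse 4. *Asgr2*, a subunit gene of the hepatocyte asialoglycoprotein receptor, fell from 132.8 ± 3.69 to 97.9 ± 15.5 CPM (-0.44, edgeR adjusted p = 0.0352). Its partner *Asgr1* had 296 and 312 CPM and a log2FC of 0.07 (edgeR adjusted p = 0.759). The calls for *Tfrc* and *Asgr2* were lost in 7 and 6 of 14 alternatives.

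Of 9 tested genes of megalin and cubilin partners, edgeR called 0 (1 at an unadjusted p under 0.05), DESeq2 called 1 and limma-voom called 0. Their median log2FC was 0.0058. The smallest p was that of *Ap2m1*, a subunit gene of the clathrin adaptor (log2FC 0.31, edgeR adjusted p = 0.0674), which DESeq2's Wald test called (adjusted p = 0.0172). *Ap2m1* did not pass in 12 of the 14 alternatives. *Gipc1*, a scaffold that binds the tail of megalin, and *Mesd*, a chaperone of LDL receptor family proteins, followed with log2FC of 0.25 and -0.15 (edgeR adjusted p = 0.291 and 0.338). Of 16 adaptor, scaffold and degrader genes, 1 rose. This was *Hgs*, a gene of the endosomal ESCRT machinery, with a log2FC of 0.40 (edgeR adjusted p = 0.0247) whose call was lost in 4 of 14 alternatives. These were library size alone (adjusted p = 0.108) and the fits without vehicle-treated mouse 1 (0.0667), vehicle-treated mouse 2 (0.0909) or ISOGK-treated mouse 2 (0.06). Of 14 retromer and endosomal sorting genes, 1 fell, namely *Eea1*, which encodes a tether of early endosomes (from 17.6 ± 2.32 to 11.6 ± 1.98 CPM, log2FC -0.60, edgeR adjusted p = 0.0282), whose call was lost in 5 of 14 alternatives, with an adjusted p of up to 0.0986. The other 13 had no call, with *Vps35*, the retromer core gene, at 82.3 and 82.7 CPM.

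Among 19 tested genes that encode ligands of these receptors, or a protein needed to make them, 3 rose and 2 fell. *Mttp*, which encodes the protein that loads lipid onto apolipoprotein B, rose from 273 ± 27.8 to 391 ± 27.1 CPM (log2FC 0.52, edgeR adjusted p = 0.0112). *Grn*, whose product progranulin is bound by sortilin, rose from 244 ± 19.3 to 347 ± 39.4 CPM (log2FC 0.51, edgeR adjusted p = 0.0149), and both calls held in 13 of 14 alternatives. *Rbp4*, the gene of the retinol carrier that megalin takes up in the kidney, had a log2FC of 0.38 (edgeR adjusted p = 0.0381), and its call was lost in 8 of 14 alternatives.

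Both ligand genes that fell encode lipases. Hepatic lipase (*Lipc*) fell from 139.8 ± 6.89 to 105.6 ± 12.1 CPM (log2FC -0.40, edgeR adjusted p = 0.0299), and the call was lost in 6 of 14 alternatives. Lipoprotein lipase (*Lpl*) fell by 0.995 on the log2 scale and kept its call in all 14. *Lpl* is also a gene of adipocytes, whose examined markers are given with *Vldlr*, and their part in its decrease was not tested. *Apob*, the structural apolipoprotein of VLDL and LDL, had 3292 and 3305 CPM and a log2FC of 0.0057 (edgeR adjusted p = 0.984). *Apoe*, targeted in both groups, had a log2FC of 0.47 (edgeR adjusted p = 0.074).

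**Figure D4:**
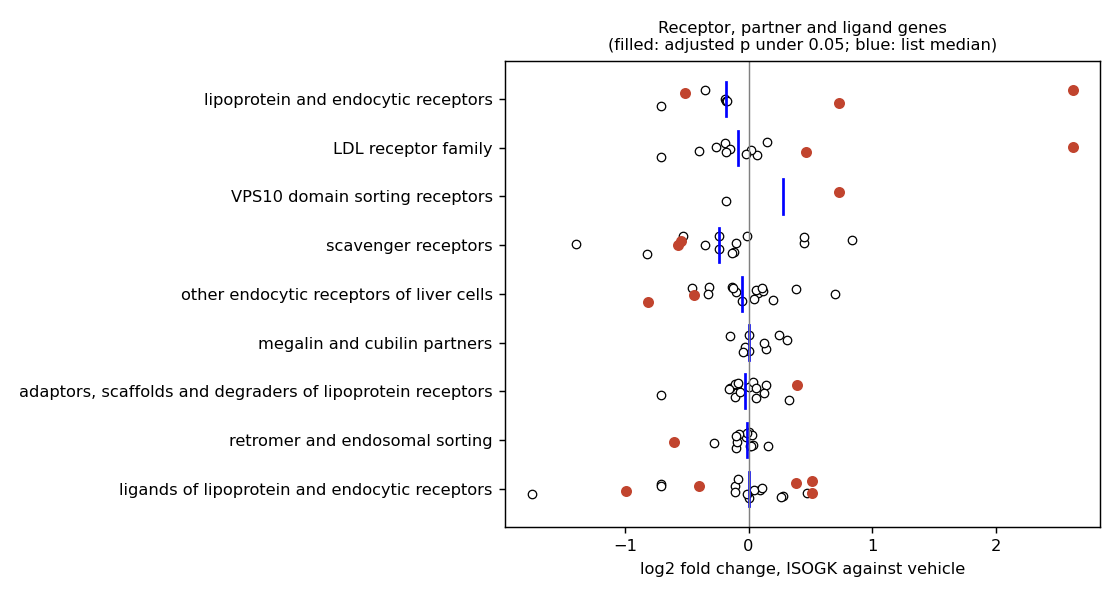
Log2 fold change, ISOGK against vehicle, on the horizontal axis for each tested gene of the receptor, partner and ligand lists, with filled points for genes with an adjusted p under 0.05 and a blue line at the median of a list; some genes stand in more than 1 list. *Lrp2*, with 2.63, lies farther from 0 than any other gene shown.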

How the data were processed

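Libraries were made from liver RNA of 8 mice, 4 per group. The authors aligned single-end reads with HISAT2 2.0.5 and counted them per gene with StringTie 1.3.3b; the processing notes name mm10, and the annotation and use of strand are not given in the sources used here. The deposited values are raw counts per gene symbol, and columns named DMSO were taken as the vehicle group. Counts of reads without molecular identifiers give counting precision only.

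Genes were filtered with filterByExpr (minimum count 10, minimum total 15), scaled with TMM, and compared between groups in R 4.3.3 by the robust quasi-likelihood test of edgeR 4.0.16, with Benjamini-Hochberg adjustment over 12307 genes. Standard errors and 95% confidence intervals were derived from the test statistic. Exact permutation tests used 4 against 4 mice. Coordinates and exon lengths are from GENCODE M21 (GRCm38), which held a single gene for 16184 of 16540 symbols. Alternatives were DESeq2's size factors, library size alone, no filter beyond 1 count, DESeq2 1.42.0, limma-voom (limma 3.58.1), the replicate number as a block, and each mouse left out. Methods were tested on simulated data. Replicate libraries differed by more than sampling noise (chi-square per gene 17.1 to 93.4). Vehicle pairs had 17.1 to 31.5. The highest values were those of ISOGK-treated mouse 4 with ISOGK-treated mice 1, 2 and 3, at 93.4, 82.0 and 81.0. The p-values weigh the difference between groups against the spread between these mice. For each gene, edgeR estimates this spread partly from the other tested genes.

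The receptor genes and the gene lists were chosen with earlier results of these data known. Named were all 9 receptor genes and the nearest tested neighbours of those called. The called genes of each list were also named (where none was called, up to 3 with the smallest p). *Apoe*, *Apob*, *Amn*, *Pdzk1*, *Cd36*, *Asgr1*, *Vps35* and *Sorcs2* were added after their values were seen. So were the markers *Krt19*, *Cftr*, *Spp1*, *Pkhd1*, *Cd5l*, *Fabp4*, *Cfd* and *Cidea*. Some genes of the lists are not reported here.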

Additional observations from a re-analysis of the deposited data

Results flagged for a closer look

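*Usf2*, the neighbour of *Lsr*, was low in a single vehicle-treated mouse. Mouse 1 had 40.4 CPM, while mice 2 to 4 had 50.4 to 51.8 CPM. Its distance from the closest mouse was 0.881 when divided by the spread between lowest and highest, which exceeds Dixon's limit for 4 samples. Such a distance was found in 1 of 59 groups of values examined, and 2.95 would be expected by chance.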

How the results depend on the processing

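Of 406 values for 29 genes under 14 alternatives, 332 kept their direction and side of the threshold, 57 lost and 8 gained an adjusted p under 0.05, and 9 changed sign. The number of receptor genes called was 3, against 6 with library size alone and 5 with DESeq2's Wald test. It was 1 to 4 when each mouse was left out, with 1 without vehicle-treated mouse 2, 2 without ISOGK-treated mouse 2 and 4 without ISOGK-treated mouse 3. The number called higher was 1 to 2, and the number whose groups did not overlap 6 to 7. Over all genes, 929 were called, 1435 with DESeq2, and 379 to 1235 without a mouse; with an absolute log2 fold change over 1, 200 were called and 123 to 250 without a mouse. Without vehicle-treated mice 1 to 4 the calls at any fold numbered 511, 379, 496 and 550, and without ISOGK-treated mouse 2 they numbered 471. In the receptor, partner and ligand lists, which also hold *Lrp2* and *Sort1*, 14 genes were called, and 4 to 16 without a mouse. They were 7, 4, 8 and 8 without vehicle-treated mice 1 to 4, and 6 and 9 without ISOGK-treated mice 2 and 4. Library size alone moved the median log2 fold change to -0.13 and the share of higher genes among the calls from 54.5% to 24.6%. *Sars* changed sign to -0.11 and *Fam187b* to -0.083 with library size alone; without a mouse, *Sars* ranged from -0.071 to 0.076, *Fam187b* from -0.074 to 0.21 and *Bbs5* from -0.36 to 0.092. The cause was not tested for any of these. Same-numbered mice of the groups are not said to be pairs and were not treated as pairs (correlations of deviations -0.0144 to 0.0849). With the replicate block, 827 genes and 3 receptor genes were called. The few counts of *Lrp2* and *Cubn* limit what depth can show for them.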
